A study of Homo sapiens with 52 samples.

Results

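Laminin-332 is the laminin of epithelial basement membranes, whose α and β chains LAMA3 and LAMB3 encode. Cells bind it through 2 integrins. In α6β4, the products of ITGA6 and ITGB4, the β4 chain links the matrix to keratin filaments at hemidesmosomes, and α3β1 holds the product of ITGA3. CD151 is a tetraspanin, a membrane protein that associates laterally with both laminin-binding integrins. The 6 genes described here, ITGA6, ITGB4, ITGA3, LAMA3, LAMB3 and CD151, were taken by gene name from the 78894 genes of the deposited tables. The rule uses no measured value, but the list was chosen with earlier results of these data known. In breast cancer ITGA6 is also used as a surface marker of cells with stem-like properties.

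RNA came from 3 established human breast cancer cell lines, SUM159PT, MDA-MB-231 and HS578T, which the labels call claudin-low, a class with low levels of cell-cell adhesion genes and high levels of mesenchymal genes. In each cell line, siNT (a non-targeting siRNA), siNRP1#3 or siNRP1#5 was transfected at 20 nM for 72 hrs, or cells transduced with lentivirus for shNT (a non-targeting shRNA), shNRP1#3 or shNRP1#5 went through puromycin selection and were seeded 48 hrs before harvest. Both #3 sequences, which differ from each other, are directed at transmembrane NRP1 only, and the #5 sequence, which siRNA and shRNA share, at transmembrane and soluble NRP1. NRP1 encodes neuropilin-1, a co-receptor for semaphorins and growth factors. The 52 libraries fell into 18 groups. Each held 3 libraries, but SUM159PT siNRP1#5 had only replicates 2 and 3, and only replicates 1 and 2 of HS578T shNRP1#3 were analysed. The replicates of shRNA groups were successive passages of the selected cells, so that their spread is that between passages and not between separate transductions. All cell lines were maintained in the same serum-containing medium. For delivery, a reduced-serum medium was added with the siRNA, and shRNA cells were kept overnight in lentiviral supernatant. No library was without transfection or transduction. Delivery, selection and time of harvest differed at once between siRNA and shRNA groups and cannot be told apart, so that each knockdown was compared with its own NT control.

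Expected counts per library added up to between 25310443 and 72003442. By counts, NRP1 was lower in all 12 knockdown comparisons, by a log2 fold change between -4.88 and -0.70. Of these, 11 passed an adjusted p of 0.05 with edgeR's quasi-likelihood test. The exception was HS578T shNRP1#3 (log2 fold change -1.59, adjusted p = 0.069). In MDA-MB-231 siNT, NRP1 was at 63 to 85.8 CPM (counts scaled to library size). It was at 40 to 47.3 in siNRP1#3 and 1.85 to 3.21 in siNRP1#5. In TPM (scaled for transcript length), siNRP1#3 was at 24.78 to 31.28 and overlapped siNT, at 25.61 to 31.61. In CPM, #5 was below #3 except in MDA-MB-231 shRNA (75.5 to 90.1 against 58.7 to 68.9). Whether depth of knockdown or target isoform bears on differences between #5 and #3 was not tested. Of the markers of the label, VIM, an intermediate filament gene of mesenchymal cells, was high in every group (group means of 1420 to 5520 TPM, a unit scaled for transcript length), and CDH1, which encodes E-cadherin, had group means of at most 3.13 TPM. In MDA-MB-231, however, the claudin gene CLDN4 had group means of 75.1 to 189 TPM and CLDN7 of 14.3 to 51.1 TPM. In the other cell lines their group means were at most 21.7 and 4.04 TPM. CLDN3 had 4.14 to 10.4 TPM in MDA-MB-231, and the mesenchymal markers ZEB1 and SNAI1 had 8.21 to 15.4 and 3.38 to 15.8 TPM. Set beside the other cell lines, the claudins go against the label there, and ZEB1 does not. CDH1 reached its 3.13 TPM there, against group means of at most 0.173 in SUM159PT and 0.207 in HS578T. VIM had its lowest range there, 1420 to 3220 TPM against 1540 to 4970 in SUM159PT and 2990 to 5520 in HS578T. SNAI1 had 15.1 to 37.1 TPM in SUM159PT and 0.9 to 13 in HS578T. No cell line outside the class was at hand.

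The HS578T siRNA libraries also held reads of genes that mark another cell line. The share of that cell line's RNA was estimated as the median, over genes with a mean of at least 20 CPM (counts scaled to library size) in the NT controls of 1 cell line and at most 0.5 CPM in those of both others, of the library's level relative to those controls (27 genes for MDA-MB-231 and 28 for SUM159PT). The estimated MDA-MB-231 share was 16.9, 13.3 and 8.65% in the siNRP1#5 libraries 1, 2 and 3, between 1.57 and 4.78% in the siNRP1#3 libraries and between 0.475 and 1.28% in the siNT libraries. The siNRP1#5 library 2 also had an estimated SUM159PT share of 4.87%. How these reads came into the libraries was not tested. In HS578T shRNA libraries, the MDA-MB-231 share was at most 0.302%. Outside HS578T, shares over 1% were found in MDA-MB-231 shNRP1#3 library 3 (2.07% HS578T and 1.4% SUM159PT) and SUM159PT shNRP1#5 library 2 (1.37% MDA-MB-231). Because MDA-MB-231 expressed ITGA6, ITGB4, LAMA3 and LAMB3 more highly than HS578T did, these shares enter every HS578T siRNA result below, the joint tests over cell lines included. What a share would give of a gene, and what was subtracted, was taken at that cell line's mean level in its NT controls. In MDA-MB-231, LAMA3 and ITGB4 had lower means in siNRP1#5 (5.14 and 23.2 CPM after TMM scaling) than in siNT (12.8 and 98.7). In shNT the means were 18.2 and 202. At the siNRP1#5 level the same share would give less of both genes, so that the subtraction can be too large.

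Positions are those of GRCh38 with the GENCODE 44 annotation. ITGA6 lies on chromosome 2 (172427354 to 172506459, plus strand) and LAMA3 on chromosome 18 (23689453 to 23956222, plus strand). Both ITGB4 (75721328 to 75757818) and ITGA3 (50055968 to 50090481) lie on the plus strand of chromosome 17. LAMB3 is encoded on the minus strand of chromosome 1 (209614870 to 209652425), and CD151 on the plus strand of chromosome 11 (832887 to 839831).

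The transcripts of ITGA6 end in 1 of 2 alternative coding tails, which give the cytoplasmic ends of the integrin chains α6A and α6B, and the balance of these tails is described below. The A-type tail is an exon that α6A transcripts include (chr2:172501772-172501879, plus strand) with 105 coding bases and a stop codon. The B-type tail (chr2:172504091-172504252, plus strand) follows when that exon is skipped and has 159 coding bases and a stop codon. They read, 5′ to 3′ and with the stop codon in capitals:
ITGA6 A-type tail: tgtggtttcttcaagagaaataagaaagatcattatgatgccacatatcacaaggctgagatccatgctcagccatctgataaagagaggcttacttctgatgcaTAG
ITGA6 B-type tail: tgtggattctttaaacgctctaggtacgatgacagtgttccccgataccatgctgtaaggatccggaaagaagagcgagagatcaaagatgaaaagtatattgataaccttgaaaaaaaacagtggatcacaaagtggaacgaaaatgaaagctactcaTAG

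RefSeq promoter windows (GRCh38.p14, 250 bases before to 50 after a start of transcription) were at hand for 3 of the 6 genes, ITGA6, LAMA3 and LAMB3. They were searched on both strands for the AP-1 motif TGANTCA, which 7.71% of 35116 windows of this length hold, and for the E-box CACCTG, which 20.6% hold. The LAMA3 window held 2 AP-1 matches, TGACTCA 125 bases and TGAGTCA 69 bases before the start, and a CACCTG 73 bases before it that overlaps the second by 2 bases. Of 3 LAMB3 windows, 1 held TGACTCA, 67 bases before its start, and another held CACCTG on the minus strand of the window (written CAGGTG), 218 bases before its start. One of the ITGA6 windows (chr2:172427086-172427385, plus strand) held CACCTG 136 and 46 bases before the start, and no ITGA6 window held the AP-1 motif. A match is a description of these letters only. Of the LAMB3 windows, only that with the AP-1 match is printed. The window at the annotated start of the gene (chr1:209652376-209652675) held no AP-1 match. LAMA3 and LAMB3 are printed because they encode chains of 1 protein whose changes after knockdown are set side by side below, with the 250 bases before the start and the motifs in capitals (LAMA3 chr18:23872770-23873019, plus strand, and LAMB3 chr1:209651375-209651624, minus strand):
LAMA3 promoter: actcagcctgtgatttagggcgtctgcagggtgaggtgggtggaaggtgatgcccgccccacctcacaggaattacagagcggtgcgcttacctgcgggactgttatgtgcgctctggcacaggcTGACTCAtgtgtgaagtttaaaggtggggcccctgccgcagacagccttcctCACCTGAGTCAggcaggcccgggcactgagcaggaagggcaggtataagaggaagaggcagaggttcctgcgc
LAMB3 promoter: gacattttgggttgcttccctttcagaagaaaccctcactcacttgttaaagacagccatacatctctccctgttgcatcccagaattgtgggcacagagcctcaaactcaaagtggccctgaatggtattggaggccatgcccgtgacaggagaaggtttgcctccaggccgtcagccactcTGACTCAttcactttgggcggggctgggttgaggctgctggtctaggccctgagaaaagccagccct

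Without knockdown, the cell lines differed in these genes. The level of ITGA3 was 530 ± 91.9 in siNT and 433 ± 26 in shNT of SUM159PT, 587 ± 46.1 and 814 ± 60.1 in MDA-MB-231, and 225 ± 58.5 and 150 ± 23.2 in HS578T (SD, n = 3 each), all in TPM. ITGA6 stood at 30.2 ± 14.9 and 44.4 ± 5.4 TPM in siNT and shNT of SUM159PT, at 70.1 ± 4.3 and 116 ± 6.82 in MDA-MB-231, and at 6.79 ± 0.574 and 12.1 ± 3.64 in HS578T. ITGB4 was at 59.3 ± 25.3 and 24.6 ± 11.4 TPM in SUM159PT, 57.1 ± 11.8 and 113 ± 12.9 in MDA-MB-231, and 6.53 ± 1.69 and 1.79 ± 2.02 in HS578T. The integrin chains were thus lowest in HS578T in both kinds of control. The laminin chain genes were lowest in HS578T as well. LAMB3 was at 145 ± 75.9 and 54.8 ± 7.57 TPM in SUM159PT, 159 ± 13.4 and 84.5 ± 9.43 in MDA-MB-231, and 31.3 ± 5.48 and 28.5 ± 2.36 in HS578T. LAMA3 was at 8.45 ± 2.49 and 9.54 ± 0.475 TPM in SUM159PT and 4.16 ± 0.431 and 4.88 ± 0.98 in MDA-MB-231. In HS578T LAMA3 was at 0.107 ± 0.0666 and 0.0667 ± 0.0603 TPM, from 6, 8 and 15 counts in siNT and 3 counts in each shNT library. CD151 ran the other way, with 2370 ± 235 and 1950 ± 157 TPM in HS578T against 551 ± 56 and 578 ± 27.8 in SUM159PT and 584 ± 37.7 and 543 ± 13.5 in MDA-MB-231.

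**Figure D1:**
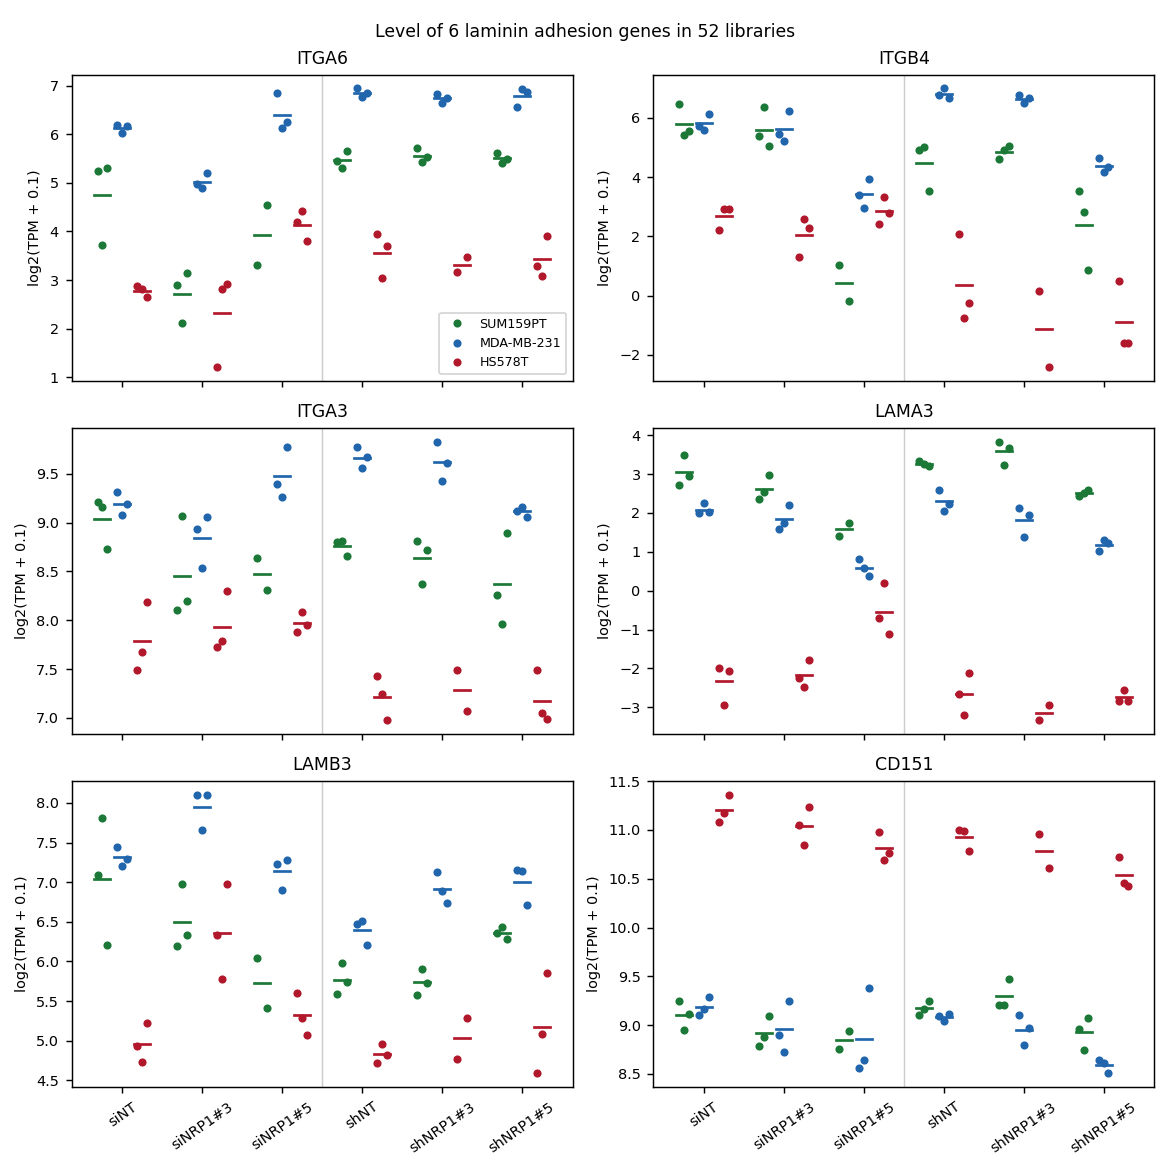
Level of each gene as log2(TPM + 0.1) in all 52 libraries, by treatment (siRNA left of the grey line, shRNA right of it), with 1 point per library and a bar at the group mean of the 2 or 3 libraries. CD151 lies highest in HS578T under every treatment, while LAMA3 in HS578T lies near the lower end of the axis except in siNRP1#5.

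In 1 fit over all 52 libraries, 5 of the 6 genes were lower in the NT controls of HS578T than in those of MDA-MB-231 and CD151 was higher, where 70.2% of all 23416 genes tested passed an adjusted p of 0.05. CD151 was 6.47-fold higher in HS578T than in MDA-MB-231 (log2 fold change 2.69 ± 0.15 SE), ITGA6 5.6-fold lower (-2.49 ± 0.20) and ITGB4 13-fold lower (-3.70 ± 0.52). Against SUM159PT, with a background of 63.5%, the same 5 genes were lower in HS578T and CD151 was 5.01-fold higher. SUM159PT and MDA-MB-231 differed in 3 of the 6 genes, with 59.4% of all genes passing. ITGA6 was 1.91-fold lower in SUM159PT than in MDA-MB-231 (adjusted p = 6.58e-05), LAMA3 2.14-fold higher (adjusted p = 4.9e-07) and CD151 1.29-fold higher (adjusted p = 0.0242). The CD151 difference between these 2 cell lines did not pass without replicate 1 or without replicate 2 (adjusted p = 0.127 and 0.113) and had a log2 difference of 0 with limma on log2(TPM + 1) (adjusted p from 0.02 to 1 over 10 alternatives). ITGB4, ITGA3 and LAMB3 did not pass between SUM159PT and MDA-MB-231 (log2 fold changes of -0.70 ± 0.46, -0.13 ± 0.19 and -0.01 ± 0.22), although ITGB4 passed in 4 and ITGA3 in 2 of 10 alternatives.

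After knockdown of NRP1, ITGB4 and LAMA3 were lower with the #5 sequence, given as siRNA or as shRNA, in SUM159PT and MDA-MB-231, while ITGA6 was lower with siNRP1#3 in the same 2 cell lines. Over the 12 comparisons, 18 of 72 tests on the 6 genes passed an adjusted p of 0.05, 7 higher and 11 lower, against 26500 of 234112 tests on all genes, or 11.3%. Because the genes were chosen with earlier results of these data known, such counts only describe them. In SUM159PT, 1 of 6 genes passed with siNRP1#3 where 8.66% of all genes did, 2 with siNRP1#5 (background 17.9%), none with shNRP1#3 (1.4%) and 2 with shNRP1#5 (5.94%). In MDA-MB-231 the counts were 2 of 6 with siNRP1#3 (background 25.7%), 4 with siNRP1#5 (29.4%), none with shNRP1#3 (3.65%) and 4 with shNRP1#5 (20.7%). In HS578T, 1 of 6 passed with siNRP1#3 (4.65%), 2 with siNRP1#5 (18.7%), none with shNRP1#3 (0.0356%) and none with shNRP1#5 (0.946%). In the 4 comparisons in which edgeR passed 0 genes of the group, an unadjusted p was under 0.05 for 0 of 6 in SUM159PT shNRP1#3, 2 in MDA-MB-231 shNRP1#3, 0 in HS578T shNRP1#3 and 2 in HS578T shNRP1#5, and DESeq2 passed 2 genes in MDA-MB-231 shNRP1#3 and 0 in the others. The median log2 fold change over the 6 genes lay between -0.94 and 0.46 in the 12 comparisons, and over all genes tested between -0.01 and 0.03. In bulk RNA, fewer cells that express a gene and less of its RNA per cell cannot be told apart.

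**Figure D2:**
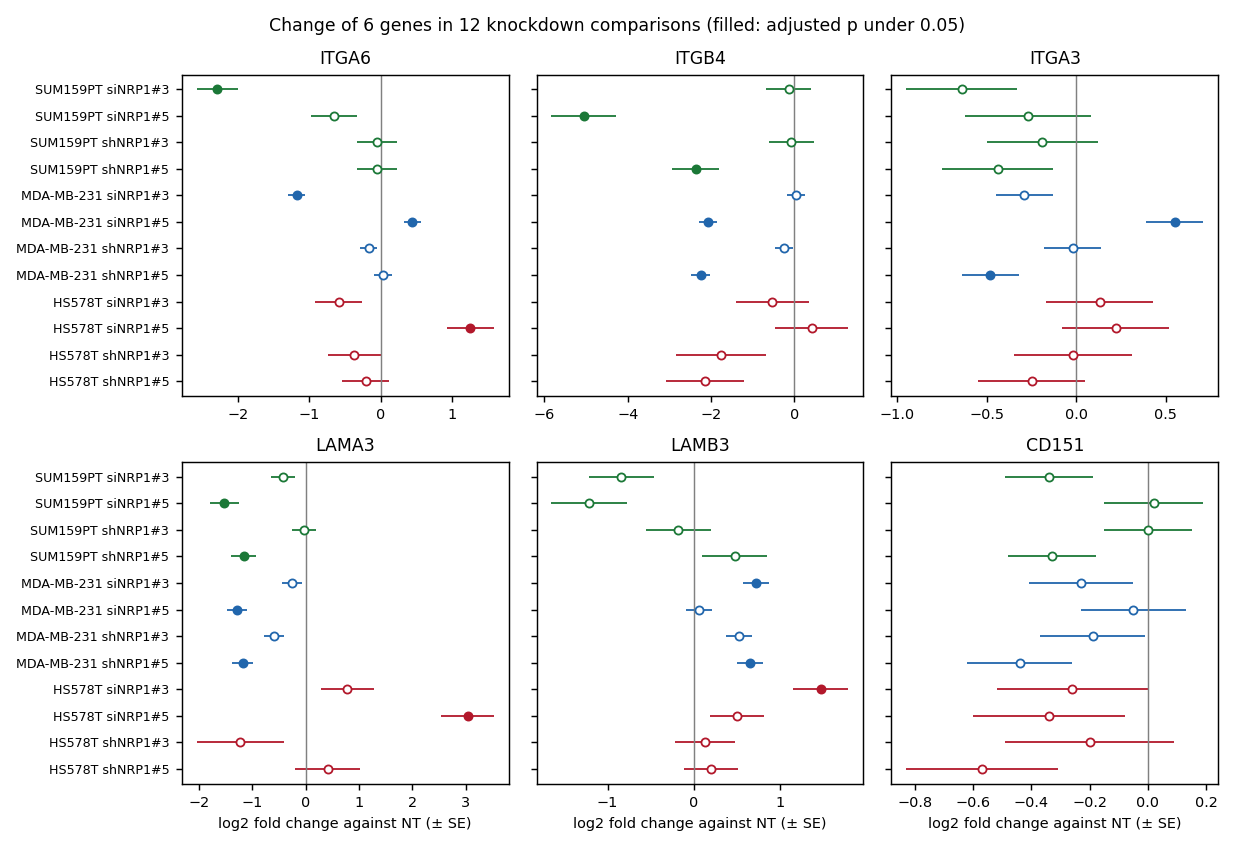
Log2 fold change of each gene against its NT control (x axis, with its own range for each gene; bars are the SE of the fit) in the 12 knockdown comparisons, with filled points for an adjusted p under 0.05 over all genes tested. ITGB4 and LAMA3 lie left of 0 with the #5 sequence in SUM159PT and MDA-MB-231, and ITGA6 lies left of 0 with siNRP1#3.

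ITGB4, the chain that sets α6β4 apart from other integrins, showed the largest fall of the 6 genes. Values are in TMM-normalised CPM and in the order of the replicate numbers here and below. In SUM159PT it was at 193, 87.7 and 116 CPM in siNT, at 94.3, 193 and 69.4 in siNRP1#3 and at 5.99 and 1.87 in siNRP1#5. The siNRP1#5 libraries lay far below both other groups, which overlapped each other. ITGB4 was 33.5-fold lower in siNRP1#5 than in siNT (log2 fold change -5.06 ± 0.77, adjusted p = 0.000954), a value that rests on 2 libraries and was -6.17 without replicate 2 and -4.44 without replicate 3, where it still passed. With siNRP1#3 it did not pass (-0.14 ± 0.54, adjusted p = 0.903). The shRNA libraries of SUM159PT gave 60.6, 80.3 and 30.7 CPM in shNT, 42.6, 59.2 and 60.7 in shNRP1#3 and 19.4, 8.63 and 4.43 in shNRP1#5. All 3 shNRP1#5 libraries were below all others, and the fall was 5.18-fold (-2.37 ± 0.57, adjusted p = 0.0207). This call did not hold without shNRP1#5 replicate 2 or 3 or without shNT replicate 1 or 2 (adjusted p = 0.105, 0.0596, 0.0616 and 0.0792, within 2.37e-16 to 0.105 over 25 alternatives), and without shNRP1#5 replicate 1 the log2 fold change was -3.10.

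In MDA-MB-231 ITGB4 was at 93.5, 86.2 and 116 CPM in siNT, at 87.4, 77.6 and 136 in siNRP1#3 and at 21.1, 16.2 and 32.2 in siNRP1#5. The siNRP1#5 group did not overlap the others and was 4.21-fold below siNT (-2.07 ± 0.22, adjusted p = 1.4e-06). In the shRNA groups ITGB4 was at 200, 207 and 198 CPM in shNT, 178, 164 and 165 in shNRP1#3 and 49.8, 39.9 and 37.2 in shNRP1#5. Again only the shNRP1#5 libraries among these 9 were low, 4.75-fold below shNT (-2.25 ± 0.22, adjusted p = 4.35e-06). The MDA-MB-231 calls of ITGB4 held in each of 26 alternatives. In HS578T, ITGB4 was low and varied between libraries. It was at 12.2, 20.9 and 25.2 CPM in siNT, 9.76, 13 and 17.6 in siNRP1#3 and 17.7, 32.6 and 28 in siNRP1#5, groups that overlapped. In the siNRP1#5 libraries, the MDA-MB-231 share would give 28.9, 22.7 and 14.8 CPM at the level of its NT controls. Counted without TMM scaling were 13.7, 29.3 and 20.4. In the shRNA groups it was at 14.6, 1.64 and 1.64 CPM in shNT, at 3.09 and 0.451 in shNRP1#3 and at 3.43, 0.348 and 0.297 in shNRP1#5. Replicate 1 was the highest library of each of these 3 groups, and at each replicate number both knockdown groups were below shNT. No HS578T comparison of ITGB4 with its NT control passed (adjusted p from 0.238 to 0.806). With siNRP1#5 the log2 fold change was 0.42 ± 0.88. It ranged from -2.13 to 0.65 over 25 alternatives, none of which passed, so that its direction is not settled. The difference with shNRP1#5 (-2.14 ± 0.94) passed without a filter on low counts and without shNRP1#5 replicate 1, where it was -4.23 (adjusted p = 4.71e-07 and 0.0407, within 4.71e-07 to 0.854 over 25 alternatives). With the replicate block it was -2.13 and did not pass (adjusted p = 0.194). That block gives siRNA and shRNA groups 1 shared effect per replicate number. Replicate 1 was the lowest library of each siRNA group here and the highest of each shRNA group. The block therefore cannot take up the spread between shRNA replicates of this gene.

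LAMA3, the α chain that carries the integrin-binding end of laminin-332, also fell with the #5 sequence in SUM159PT and MDA-MB-231. In SUM159PT it was at 33.2, 27.3 and 25.3 CPM in siNT, 17.3, 25.6 and 21.2 in siNRP1#3 and 10 and 9.74 in siNRP1#5. The siNRP1#5 libraries lay below the other 6, and LAMA3 was 2.87-fold lower than in siNT (-1.52 ± 0.27, adjusted p = 0.00171). A fit of siNRP1#5 and siNT alone gave the same size but did not pass (-1.53, adjusted p = 0.0807, within 6.42e-07 to 0.0807 over 25 alternatives). In the shRNA groups of SUM159PT it was at 37.8, 37.4 and 35.9 CPM in shNT, 42.4, 29.2 and 36.6 in shNRP1#3 and 15.4, 12 and 21.4 in shNRP1#5. Here too the shNRP1#5 libraries did not overlap the others, with a 2.23-fold fall (-1.16 ± 0.23, adjusted p = 0.0058) that did not pass with limma on log2(TPM + 1) (-0.67, adjusted p = 0.119, within 4.63e-05 to 0.119 over 25 alternatives).

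In MDA-MB-231 LAMA3 was at 13.1, 11.9 and 13.3 CPM in siNT, 9.18, 9.5 and 12.7 in siNRP1#3 and 6.76, 3.48 and 5.17 in siNRP1#5. Its level in siNRP1#5 was 2.45-fold lower than in siNT (-1.29 ± 0.19, adjusted p = 4.95e-05) without overlap. The shRNA groups stood at 20.8, 16.4 and 17.4 CPM in shNT, 12.2, 11.1 and 12.8 in shNRP1#3 and 7.22, 8.57 and 8.17 in shNRP1#5. LAMA3 fell 2.27-fold with shNRP1#5 (-1.18 ± 0.19, adjusted p = 0.000306), and the shNRP1#3 libraries, which lay between the other groups, did not pass (-0.59 ± 0.19, adjusted p = 0.0897) but did in 5 of 26 alternatives, DESeq2 among them. Both #5 calls of LAMA3 in MDA-MB-231 held in each of 26 alternatives.

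In HS578T, LAMA3 had the opposite sign at low counts. The libraries held 6, 8 and 15 counts in siNT, 8, 17 and 21 in siNRP1#3 and 65, 105 and 94 in siNRP1#5, or 0.227, 0.234 and 0.473, 0.379, 0.439 and 0.795, and 2.55, 2.74 and 2.45 CPM. LAMA3 was higher in siNRP1#5 than in siNT (log2 fold change 3.03 ± 0.49, adjusted p = 0.000797), and the groups did not overlap. Without TMM scaling, these 3 libraries held 1.98, 2.46 and 1.78 CPM of LAMA3. Their share of MDA-MB-231 RNA alone would give 2.97, 2.33 and 1.52 CPM at the level of its NT controls, and less at its siNRP1#5 level. Once reads of other cell lines had been subtracted, LAMA3 no longer passed the filter on low counts in HS578T and had no test. In the shRNA libraries of HS578T, LAMA3 held 3 counts in each shNT library, 0 and 3 in shNRP1#3 (0 counts allow up to 0.0719 CPM there) and 5, 5 and 8 in shNRP1#5, and no change was detectable at this depth.

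**Figure D3:**
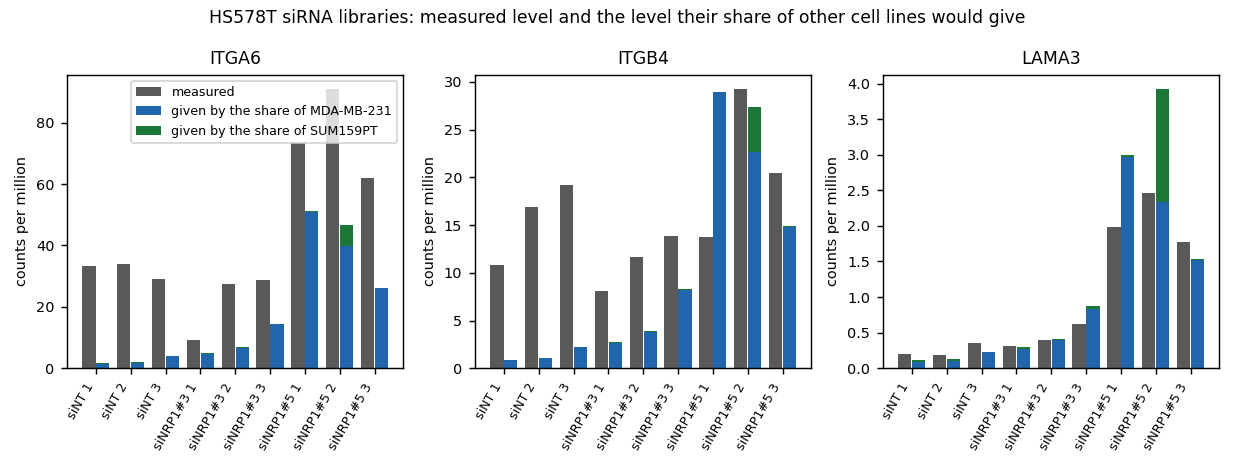
CPM (without TMM scaling) of ITGA6, ITGB4 and LAMA3 in the 9 HS578T siRNA libraries (grey bars) beside the CPM that the library's estimated share of MDA-MB-231 (blue) and SUM159PT (green) RNA would give, stacked. The shares are taken at the levels of the NT controls of these cell lines. In siNRP1#5 library 1, the ITGB4 and LAMA3 bars for the share exceed the measured 13.7 and 1.98 CPM, while for ITGA6 the measured bars (73.5, 91.1 and 62.1 CPM) exceed those for the share.

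LAMB3, the β chain of laminin-332, passed in 3 of 12 comparisons and was higher in each. In MDA-MB-231 it was at 370, 358 and 360 CPM in siNT, 662, 476 and 626 in siNRP1#3 and 351, 342 and 429 in siNRP1#5. It was 1.65-fold higher with siNRP1#3 (0.72 ± 0.15, adjusted p = 0.00162), with no overlap, and did not pass with siNRP1#5 (0.06 ± 0.15, adjusted p = 0.79). In the shRNA groups it was at 184, 183 and 148 CPM in shNT, 275, 243 and 215 in shNRP1#3 and 305, 280 and 220 in shNRP1#5. Both knockdown groups lay above shNT, and shNRP1#5 passed (1.57-fold higher, 0.65 ± 0.15, adjusted p = 0.00498) while shNRP1#3 did not (1.43-fold, 0.52 ± 0.15, adjusted p = 0.0643) but did in 6 of 26 alternatives, among them DESeq2 (adjusted p = 0.0474) and the replicate block (0.0489), within 0.017 to 0.298 over all 26. In SUM159PT the siNT libraries spread from 191 to 751 CPM (389, 751 and 191), which took in the 193, 355 and 194 CPM of siNRP1#3, and no comparison of LAMB3 passed there (log2 fold changes from -1.21 to 0.47). The siNRP1#5 libraries of SUM159PT were at 248 and 133 CPM, and their difference from siNT (-1.21 ± 0.44, adjusted p = 0.067) passed in 7 of 25 alternatives, among them DESeq2 (adjusted p = 0.0333), limma on log2(TPM + 1) (0.0229) and the replicate block (0.0136), within 0.000736 to 0.327 over all 25. With siNRP1#3, LAMB3 passed in 2 of 25 alternatives. The shRNA libraries of SUM159PT lay between 102 and 203 CPM. In HS578T LAMB3 was at 85, 92.2 and 125 CPM in siNT, 264, 165 and 406 in siNRP1#3 and 190, 111 and 124 in siNRP1#5. It was 2.77-fold higher with siNRP1#3 (1.47 ± 0.32, adjusted p = 0.0145), and there the MDA-MB-231 share would give only 4.71, 6.71 and 14.3 of the 220, 148 and 321 CPM counted without TMM scaling. This call did not hold without siNRP1#3 replicate 3 or siNT replicate 1 or 2 (adjusted p = 0.0606, 0.0643 and 0.071, within 4.12e-06 to 0.071 over 25 alternatives). The HS578T shRNA libraries held between 77.1 and 150 CPM of LAMB3, and neither comparison passed.

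ITGA6, the laminin receptor chain that pairs with β4 or β1, fell with siNRP1#3. In SUM159PT it was at 148, 64.7 and 149 CPM in siNT, 25.9, 19.1 and 28.8 in siNRP1#3 and 51.7 and 99.5 in siNRP1#5. The siNRP1#3 libraries lay below all others, 4.88-fold under siNT (-2.29 ± 0.29, adjusted p = 0.000246), while siNRP1#5 overlapped siNT, whose replicate 2 was low, and did not pass (-0.66 ± 0.32, adjusted p = 0.152). This log2 fold change was -0.99 and passed without siNT replicate 2, and was -1.20 and passed without siNRP1#5 replicate 3 (adjusted p = 0.0159 and 0.0479, within 0.0159 to 0.594 over 25 alternatives). In MDA-MB-231 it was at 216, 207 and 234 CPM in siNT, 91.9, 98 and 95.4 in siNRP1#3 and 353, 246 and 284 in siNRP1#5. The 3 groups did not overlap. ITGA6 was 2.27-fold lower with siNRP1#3 (-1.18 ± 0.12, adjusted p = 1.54e-06) and 1.36-fold higher with siNRP1#5 (0.44 ± 0.12, adjusted p = 0.009). The rise did not pass in a fit of these 2 groups alone (adjusted p = 0.127) or with limma on log2(TPM + 1) (adjusted p = 0.196, the range over 26 alternatives being 0.00084 to 0.196).

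ITGA6 passed in none of the 6 shRNA comparisons with edgeR, DESeq2 or limma, and edgeR gave an unadjusted p of 0.18 or more in each. Its level was 152, 137 and 176 CPM in shNT of SUM159PT, 163, 143 and 141 in shNRP1#3 and 145, 147 and 148 in shNRP1#5. In MDA-MB-231 it was 326, 303 and 308 CPM in shNT, 248, 280 and 305 in shNRP1#3 and 277, 332 and 338 in shNRP1#5. These groups overlapped, and the log2 fold changes of the 4 comparisons lay between -0.17 and 0.03 with adjusted p from 0.541 to 0.968. The comparison of siNRP1#3 with shNRP1#3, whose sequences differ, was not tested. In HS578T ITGA6 was at 37.8, 41.9 and 38.2 CPM in siNT, 11.1, 30.6 and 36.6 in siNRP1#3 and 94.9, 101 and 85.3 in siNRP1#5. All siNRP1#3 libraries lay below siNT, but replicate 1 stood apart and the fall did not pass (-0.59 ± 0.33, adjusted p = 0.341). ITGA6 was 2.38-fold higher with siNRP1#5 (1.25 ± 0.33, adjusted p = 0.0162). The MDA-MB-231 share would give 51, 39.9 and 26 of the 73.5, 91.1 and 62.1 CPM counted without TMM scaling, and after subtraction the rise was 0.58 on the log2 scale and did not pass (adjusted p = 0.339). It also did not pass without siNT replicate 3 (adjusted p = 0.0521, within 0.000143 to 0.339 over 25 alternatives). HS578T shRNA libraries held 75.6, 36.8 and 53.8 CPM in shNT, 47 and 39.9 in shNRP1#3 and 52.1, 34.4 and 57.9 in shNRP1#5, which overlapped.

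ITGA3, the α chain of α3β1, passed in 2 of 12 comparisons, both in MDA-MB-231 and in opposite directions. It was at 1210, 1190 and 1190 CPM in siNT and 1460, 1500 and 2230 in siNRP1#5, a rise of 1.46-fold (0.55 ± 0.16, adjusted p = 0.0134), and at 1010, 780 and 1110 in siNRP1#3. With shRNA it was at 1610, 1350 and 1450 CPM in shNT and 1070, 1110 and 959 in shNRP1#5, a 1.4-fold fall (-0.48 ± 0.16, adjusted p = 0.0366), and at 1640, 1250 and 1440 in shNRP1#3. The rise did not pass without siNRP1#5 replicate 3, with limma on log2(TPM + 1) or in a fit of both groups alone (adjusted p = 0.0901, 0.16 and 0.0983, within 0.000972 to 0.16 over 26 alternatives), and leaving out any 1 of the 6 libraries compared ended the call of the fall (adjusted p = 0.0531 to 0.14, within 0.000627 to 0.14 over 26 alternatives). In the other 10 comparisons the log2 fold changes of ITGA3 lay between -0.64 and 0.22. Its levels spanned 525 to 1770 CPM in SUM159PT and 336 to 1120 CPM in HS578T.

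CD151, the tetraspanin partner of these integrins, passed in none of the 12 comparisons (log2 fold changes between -0.57 and 0.02) with edgeR or with DESeq2, in 1 with limma on log2(TPM + 1), and had an unadjusted p under 0.05 in 4. In MDA-MB-231 it was at 418, 406 and 419 CPM in shNT and 323, 305 and 285 in shNRP1#5, groups that did not overlap, with a log2 fold change of -0.44 ± 0.18 (adjusted p = 0.0917). That difference passed in 6 of 26 alternatives, among them no filter on low counts (adjusted p = 0.0078) and a fit of both groups alone (0.000371), within 0.000371 to 0.234 over all 26. In HS578T it was at 2910, 2750 and 2170 CPM in shNT and 2300, 1500 and 1510 in shNRP1#5 (-0.57 ± 0.26, adjusted p = 0.244). The CD151 levels of SUM159PT lay between 407 and 638 CPM over all 17 libraries.

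The 2 sequences were also compared with each other directly. ITGB4 was lower with #5 than with #3 by 30.3-fold in SUM159PT siRNA (log2 fold change -4.92 ± 0.76, adjusted p = 0.000366), 4.93-fold in SUM159PT shRNA (adjusted p = 0.0176), 4.34-fold in MDA-MB-231 siRNA (adjusted p = 6.31e-07) and 3.99-fold in MDA-MB-231 shRNA (adjusted p = 1.82e-05). LAMA3 was lower with #5 in the same 4 comparisons, by 2.15-fold, 2.18-fold, 2.04-fold and 1.5-fold (adjusted p = 0.0054, 0.00451, 0.000304 and 0.0411). Leaving out any 1 of the 6 libraries compared ended the last of these calls (adjusted p of 0.0021 to 0.135 over 26 alternatives), and the ITGB4 difference in SUM159PT shRNA did not pass without shNRP1#5 replicate 2 or 3 (adjusted p = 0.0804 and 0.0614). ITGA6 was higher with siNRP1#5 than with siNRP1#3 in all 3 cell lines, by 3.08-fold in SUM159PT, 3.09-fold in MDA-MB-231 and 3.59-fold in HS578T (adjusted p = 0.00124, 9.21e-09 and 0.00247), the last with 8.65 to 16.9% of MDA-MB-231 RNA in siNRP1#5. The HS578T difference passed in each of 25 alternatives, the subtraction of reads of other cell lines among them (adjusted p of 5.54e-09 to 0.0102). In SUM159PT the difference was 1.11 on the log2 scale and did not pass with limma on log2(TPM + 1) (adjusted p = 0.057, within 2.7e-07 to 0.057 over 25 alternatives). No shRNA comparison of ITGA6 passed.

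Counted over the 6 genes, 3 passed between the siRNA sequences in SUM159PT (background 29.7%), 5 in MDA-MB-231 (39%) and 3 in HS578T (18.1%). Between the shRNA sequences, 2 passed in SUM159PT (background 8.71%), 2 in MDA-MB-231 (14.2%) and none in HS578T (0.544%), where 1 gene had an unadjusted p under 0.05 and DESeq2 passed 0. Besides the genes above, ITGA3 was 1.78-fold higher and LAMB3 1.58-fold lower with siNRP1#5 than with siNRP1#3 in MDA-MB-231 (adjusted p = 0.000365 and 0.00175). In HS578T LAMB3 was 1.96-fold lower (adjusted p = 0.041) and LAMA3 higher with siNRP1#5, whose libraries had the MDA-MB-231 shares of 8.65 to 16.9%. LAMA3 had no test there after subtraction. ITGA3 did not pass between the shRNA sequences of MDA-MB-231 but did in 12 of 26 alternatives, the replicate block among them (-0.45, adjusted p = 0.0479, within 0.0073 to 0.249 over all 26). The HS578T LAMB3 difference did not pass without siNRP1#3 replicate 1 or 3, siNRP1#5 replicate 2 or 3 or siNT replicate 2 (adjusted p of 0.00383 to 0.21 over 25 alternatives).

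The NT controls themselves differed between the 2 ways of delivery. In SUM159PT, LAMB3 was the 1 gene of 6 that passed between shNT and siNT (background 14.4%), 3.28-fold lower in shNT (-1.72 ± 0.39, adjusted p = 0.012). That value fell to -1.11 without siNT replicate 2, the library at 751 CPM, and did not pass without shNT replicate 1 or 3 (adjusted p = 0.0507 and 0.0634, within 6.12e-09 to 0.0634 over 25 alternatives). In MDA-MB-231, 3 of 6 passed (background 20.6%). LAMB3 was 2.16-fold lower in shNT there (-1.11 ± 0.15, adjusted p = 6.02e-05), while ITGA6 was 1.4-fold (0.48 ± 0.12, adjusted p = 0.00806) and ITGB4 2-fold higher (1.00 ± 0.21, adjusted p = 0.00259). In HS578T, 1 of 6 passed (background 17.9%). It was LAMA3, at 3 counts in each shNT library against 6, 8 and 15 in siNT (adjusted p = 0.0385), and leaving out any 1 of these 6 libraries ended the call (adjusted p of 0.0203 to 0.803 over 23 alternatives). The siNT libraries had MDA-MB-231 shares of up to 1.28%, and LAMA3 had no test after subtraction.

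Whether a change was equal in the 3 cell lines was tested in the fit over all libraries. With siNRP1#3 the changes of 2 of 6 genes, ITGA6 and LAMB3, were unequal (background 3.42%), and with siNRP1#5 those of 4, ITGA6, ITGB4, LAMA3 and LAMB3 (background 18.2%). HS578T siNRP1#5 enters these tests with its MDA-MB-231 shares, and after subtraction 1 of these 6 results passed, LAMB3 with siNRP1#3 (adjusted p = 0.00887), with adjusted p of 0.0871 to 0.222 for the 4 genes with siNRP1#5. Such results numbered 3 to 4 without 1 replicate number and 2 without HS578T. With shNRP1#3 none passed (0.747%) and with shNRP1#5 none (3.81%), where edgeR gave an unadjusted p under 0.05 for 0 and 1 genes and DESeq2 passed 0. Between SUM159PT and MDA-MB-231 alone, ITGB4 fell further in SUM159PT with siNRP1#5 (difference of log2 fold changes -3.08 ± 0.71, adjusted p = 0.0143) and ITGA6 had the lower log2 fold change there (-1.17 ± 0.33, adjusted p = 0.04). The falls of LAMA3 with siNRP1#5 and shNRP1#5 did not differ between these 2 cell lines beyond their error (-0.30 ± 0.32 and 0.03 ± 0.29), nor did those of ITGB4 with shNRP1#5 (-0.11 ± 0.63, a wide error).

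The ITGA6 transcripts were split by their tail. Of 13 transcripts, 3 had the A-type tail and took 58.9% of the ITGA6 RNA on average over the 52 libraries, 4 had the B-type tail (23.2%) and 6 had neither (17.9%). The most abundant were ITGA6-201 (A-type, 32.2%, from 21.2 to 51.9% over libraries), ITGA6-212 (A-type, 24.6%, from 0 to 47.4%), ITGA6-202 (B-type, 21.7%, from 0 to 44.4%) and ITGA6-210 (a retained intron, 10.6%). RSEM divides reads that transcripts share, so that a single isoform percentage is an estimate whose depth per transcript is not given by these percentages.

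The A-type share among A-type and B-type RNA was lower with the #5 sequence. In SUM159PT it was 77.2, 72.3 and 76% in siNT, 83.7, 77.3 and 67.2% in siNRP1#3 and 69.1 and 57.9% in siNRP1#5. In the shRNA groups it was 66, 61.9 and 58.8% in shNT, 74, 68.8 and 70.7% in shNRP1#3 and 51.1, 46.7 and 47.6% in shNRP1#5. Both #5 groups lay below their controls without overlap. In shNRP1#5 the B-type ITGA6-202 took 41.8 ± 2.91% of ITGA6 RNA against 30 ± 2.42% in shNT, and the A-type ITGA6-212 took 2.78 ± 3.27% against 16.4 ± 2.79% (SD, n = 3 each). The more abundant A-type ITGA6-201 did not fall there, with 35.4 ± 6.01% in shNRP1#5 against 29.5 ± 3.23% in shNT. The lowest ITGA6-212 estimate in shNRP1#5 was 0%.

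MDA-MB-231 had shares of 74.2, 71.3 and 77.7% in siNT, 82.2, 86.3 and 84.8% in siNRP1#3 and 64.5, 65.6 and 75.2% in siNRP1#5. The shRNA groups had 64.9, 71.9 and 73.5% in shNT, 77.1, 78.5 and 78.8% in shNRP1#3 and 67.1, 65.1 and 63.5% in shNRP1#5. Here both #3 groups lay above their controls and the #5 groups overlapped theirs. HS578T had 86.9, 96.4 and 85.7% in siNT, 61.9, 84.3 and 75.5% in siNRP1#3 and 78, 70.5 and 69.6% in siNRP1#5. In its shRNA groups the shares were 88.3, 70.6 and 75.4% in shNT, 82.6 and 68.5% in shNRP1#3 and 64.5, 60.2 and 59.1% in shNRP1#5. The siNRP1#3, siNRP1#5 and shNRP1#5 libraries of HS578T lay below their controls, and shNRP1#3 overlapped its control.

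**Figure D4:**
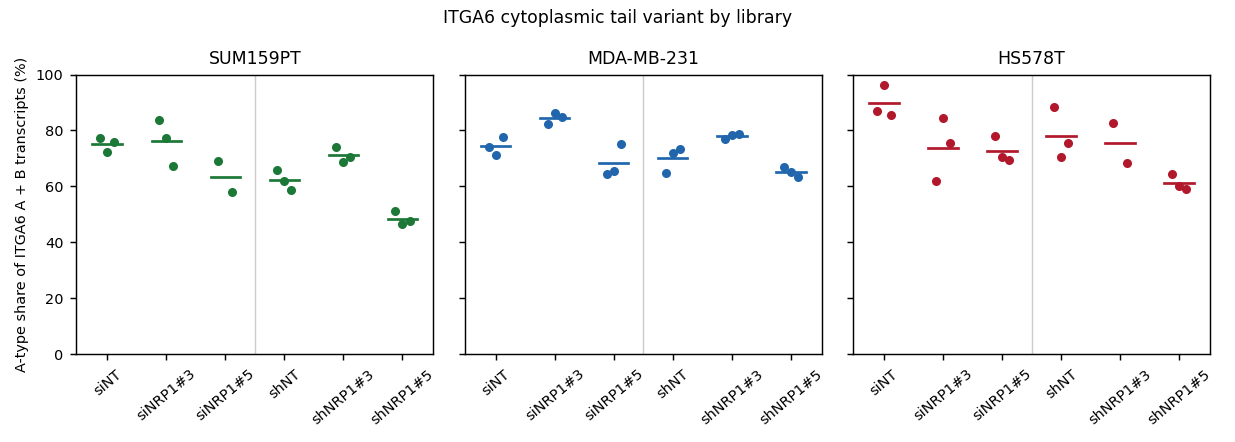
A-type share of A-type plus B-type ITGA6 RNA (y axis, percent) in each library by treatment and cell line, with a bar at the group mean. The shNRP1#5 libraries of SUM159PT (46.7 to 51.1%) are the lowest of all 52.

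Over the 3 cell lines, an exact permutation test (two-sided, labels permuted within each cell line, 5 tests adjusted together) gave a mean difference of -11.5 percentage points for siNRP1#5 against siNT (adjusted p = 0.0025) and -11.8 for shNRP1#5 against shNT (adjusted p = 0.0025). The difference was negative in each cell line, -11.7, -5.95 and -17 points for siNRP1#5 and -13.7, -4.91 and -16.8 for shNRP1#5 in SUM159PT, MDA-MB-231 and HS578T. The controls differed in the same direction, shNT against siNT giving -9.58 points (adjusted p = 0.00583 by the exact permutation test). With siNRP1#3 the mean difference was -1.61 points (exact permutation, adjusted p = 0.704) and hid opposite signs, 0.928 and 10 points in SUM159PT and MDA-MB-231 against -15.8 in HS578T, and with shNRP1#3 it was 4.82 points (adjusted p = 0.187). Without replicate 3, the 3 differences that passed had an adjusted p of 0.0617 in the same exact permutation test, and without replicate 2 the difference between controls had 0.0772. The HS578T siRNA libraries enter these means with their shares of MDA-MB-231 RNA, whose part in the result was not tested. Without HS578T the differences with siNRP1#5, shNRP1#5 and between controls were -8.81, -9.32 and -8.59 points and still passed, and the rise with shNRP1#3, 8.49 points, passed too (each adjusted p = 0.025, exact permutation test).

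In the wider laminin and integrin list of 26 other genes, at most 11 passed in any 1 comparison of a knockdown with its NT control. In SUM159PT, 1 was higher and 5 lower with siNRP1#3 (23.1% of the list against 8.66% of all genes), 1 and 6 with siNRP1#5 (26.9% against 17.9%), none with shNRP1#3 (1.4% of all genes) and 2 and 2 with shNRP1#5 (15.4% against 5.94%). In MDA-MB-231, where 25 were tested, 2 were higher and 5 lower with siNRP1#3 (28% against 25.7%), 6 and 3 with siNRP1#5 (36% against 29.4%), 2 and 1 with shNRP1#3 (12% against 3.65%) and 4 and 7 with shNRP1#5 (44% against 20.7%). In HS578T, 2 were higher and 1 lower with siNRP1#3 (11.5% against 4.65%), 2 and 2 with siNRP1#5 (15.4% against 18.7%), none with shNRP1#3 (0.0356% of all genes) and 0 and 1 with shNRP1#5 (3.85% against 0.946%). Where edgeR passed 0, an unadjusted p was under 0.05 for 5 of 26 in both SUM159PT shNRP1#3 and HS578T shNRP1#3, and DESeq2 passed 0 and 1. The list's median log2 fold change lay between -0.46 and 0.11. This list too was chosen with earlier results of these data known, so that its counts only describe it.

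ITGB1, the β1 chain that pairs with α3 and α6, passed once, in MDA-MB-231 siNRP1#3 (-0.44 ± 0.15, adjusted p = 0.032). CD82, another tetraspanin, was lower with both siRNA sequences in SUM159PT (-1.43 ± 0.34 with siNRP1#3 and -2.22 ± 0.41 with siNRP1#5) and in MDA-MB-231 (-0.69 ± 0.17 and -1.32 ± 0.18). The laminin chain genes LAMA5 (-1.24 ± 0.35 and -1.95 ± 0.41) and LAMC1 (-0.83 ± 0.19 and -0.94 ± 0.22) were also lower with both siRNA sequences in SUM159PT. ITGA7, the α chain of another laminin receptor, was lower with both shRNA sequences in MDA-MB-231 (-1.47 ± 0.23 and -1.14 ± 0.22). In HS578T, FERMT2, which encodes the integrin activator kindlin-2, was higher with siNRP1#3 and siNRP1#5 (1.14 ± 0.30 and 1.22 ± 0.30) and LAMA4, another laminin chain gene, was lower (-1.89 ± 0.35 and -1.14 ± 0.34), in libraries with up to 4.78 and 16.9% of MDA-MB-231 RNA whose part was not tested.

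Across the 18 group means of log2 CPM, ITGB4 and LAMA3 had a Pearson correlation of 0.767, and over the 6 groups within SUM159PT, MDA-MB-231 and HS578T it was 0.81, 0.954 and 0.81. ITGB4 and ITGA6, whose products form 1 receptor, had 0.501 over the 18 groups and -0.167, -0.138 and 0.0849 within the cell lines. The group means of a cell line share its genotype and normalisation, and in HS578T the RNA of another cell line, so that these values only describe the groups. Of 23416 genes, the 5 outside the group whose means were most like those of ITGA6 over the 18 groups were GCNT2 (r = 0.968), ERLIN1 (0.964), TAF3 (0.961), PIP5K1A (0.944) and ZDHHC16 (0.937).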

How the data were processed

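RNA of 52 libraries was analysed from tables that the authors made with Trim Galore 0.6.5, STAR 2.7.2b and RSEM 1.3.3 (per the labels, with FastQC 0.11.9 for read quality), on GRCh38 with Ensembl 114 identifiers. The deposited expected counts per gene are RSEM estimates, rounded here to whole numbers. The authors' TPM per gene and transcript are scaled for transcript length and library, and the deposited percent values give each transcript's share of its gene, also from RSEM. Reads that similar transcripts share were divided by RSEM, which can move isoform shares.

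Depth was 25310443 to 72003442 expected counts per library, with a median of 44804505. Genes kept by filterByExpr (20067 for SUM159PT, 18800 for MDA-MB-231, 19661 for HS578T) were scaled by TMM and tested with edgeR 4.0.16 (glmQLFit with robust estimation, then glmQLFTest) in R 4.3.3, in 1 fit per cell line with 6 group means. Cell lines, and whether changes were equal over cell lines, were tested in 1 fit over all 52 libraries (23416 genes). Benjamini-Hochberg adjustment ran over all genes tested, with a threshold of 0.05. The ITGA6 tail share was tested by exact permutation within cell lines (numpy 2.4.6). The tests were also run on simulated data. P-values measure only the spread between these libraries, and shRNA replicates were passages. The CPM limit for a count of 0 is 3 counts and covers counting error only.

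Alternatives were no filter on low counts, RLE normalisation in edgeR, the test of DESeq2 1.42.0, and limma 3.58.1 on log2(TPM + 1) and log2(TPM + 0.1). Further alternatives were a replicate block, subtraction of reads of other cell lines (at the levels of their NT controls), fits of only the groups compared and leaving out each library. The block gave 1 effect per replicate number, shared by all groups of a fit. Leaving out HS578T or its siNRP1#5 group was added after the data were seen. The 6 genes and the wider list were chosen with earlier results of these data known. Named were the 6 genes, NRP1 as a check of the labels, ITGB1, any other gene of the wider list that passed in the same direction with both siRNA or both shRNA sequences in a cell line, the 5 genes most like ITGA6 and the 4 most abundant ITGA6 transcripts. A further gene that this rule names is not reported here. Positions came from GENCODE 44.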

Additional observations from a re-analysis of the deposited data

Results flagged for a closer look

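The change of 4 genes after knockdown differed between the 3 cell lines in a joint test of the differences (edgeR's quasi-likelihood test over all genes). With siNRP1#3, ITGA6 had log2 fold changes of -2.29 (SUM159PT), -1.18 (MDA-MB-231) and -0.59 (HS578T) (adjusted p = 0.02). LAMB3 had -0.84, 0.72 and 1.47 in the same order (adjusted p = 0.00338). With siNRP1#5, ITGA6 had -0.66, 0.44 and 1.25 (adjusted p = 0.00333), ITGB4 -5.06, -2.07 and 0.42 (adjusted p = 0.00146), LAMA3 -1.52, -1.29 and 3.03 (adjusted p = 3.73e-10) and LAMB3 -1.21, 0.06 and 0.50 (adjusted p = 0.022). The estimated share of MDA-MB-231 RNA in the HS578T siNRP1#5 libraries was 8.65 to 16.9%. After reads of other cell lines were subtracted at the level of their NT controls, only LAMB3 with siNRP1#3 still differed of these 6 results (adjusted p = 0.00887). LAMA3 was then too low in HS578T to be tested there.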

How the results depend on the processing

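Of 53 called comparisons of the 6 genes, 36 stayed called under every alternative run and 42 under those planned other than leaving out a library, and none of 1116 recomputed values of called comparisons changed sign. LAMA3 in HS578T had no recomputed value after subtraction for siNRP1#5 against siNT or siNRP1#3, or for shNT against siNT. It also had none for shNT against siNT in a fit of both groups alone. The 18 knockdown calls numbered 16 to 25 over the alternatives other than leaving out 1 library (25 without a filter on low counts, 21 with DESeq2) and 17 to 20 when 1 library was left out. Changes unequal over the cell lines numbered 6, against 1 after reads of other cell lines were subtracted, 2 without HS578T and 3 to 4 without 1 replicate number. Without HS578T the ITGA6 A-type share changed by 5.47 points with siNRP1#3 (adjusted p = 0.11), against -1.61 with it, and by 8.49 with shNRP1#3. Without 1 replicate number the share differences ranged from -12.4 to -10.2 (siNRP1#5), -12.3 to -11.5 (shNRP1#5) and -11.2 to -8.45 points (shNT against siNT), and the cause was not tested.

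In comparisons that were not called, 102 of 2245 values changed sign, over 30 comparisons. Among them, CD151 in MDA-MB-231 siNRP1#5 against siNRP1#3 became -0.10 with limma and ranged from -0.17 to 0.41 without 1 library. Against siNT it ranged from -0.40 to 0.18 without 1 library, with 0.02 and 0.01 without siNRP1#5 replicate 2 and siNT replicate 3. CD151 in SUM159PT siNRP1#5 against siNRP1#3 became -0.07 with limma. ITGB4 in HS578T became 0.06 for shNRP1#3 against shNT without shNT replicate 1, and -0.94 for siNRP1#5 against siNRP1#3 after subtraction. For siNRP1#5 against siNT in HS578T, ITGB4 ranged from -2.13 to 0.65 over 25 alternatives, against 0.42 in the main fit.

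Same-numbered libraries deviated together (correlation over 0.1) in 9 of 11 pairs in SUM159PT, 7 of 12 in MDA-MB-231 and 7 of 11 in HS578T. Every pair did so in 4 of 12 comparisons (SUM159PT siNRP1#3 and shNRP1#3, MDA-MB-231 siNRP1#5, HS578T shNRP1#5), where the replicate block changed no call of the 6 genes. With the block, 20 of 72 knockdown tests passed against 18, and 29957 against 26500 over all genes. Groups of 2, the HS578T libraries with RNA of other cell lines, and LAMA3 at 3 to 15 counts in HS578T controls limit what these data can show.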
